A study of Homo sapiens with 6 samples.

Results

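The EGR, KLF and IER early genes studied here are EGR1, EGR2, EGR3, KLF2, KLF4, KLF6, KLF10, IER2, IER3 and IER5, 10 of the 58735 genes in the count table of A549 cells, a human lung adenocarcinoma line. They were chosen by name, with the higher values of immediate early genes in IL17D-overexpressing cells already known, so the comparison of the groups over these 10 genes is a description and carries no test. IL17D-overexpressing cells (labelled as A549 that overexpress IL17D) carried a lentiviral vector in which the PGK promoter drives the IL17D open reading frame together with GFP, and control cells carried the empty vector. Each group had 3 RNA-seq libraries, called replicates 1, 2 and 3. The sources used here do not say whether replicates were separate transductions, clones or cultures, so the spread between libraries may be technical. The comparison addresses which genes of the lung cancer cell itself differ when it makes the cytokine IL-17D.

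Immediate early genes are transcribed within minutes of a growth factor, stress or cytokine signal, without new protein synthesis. Serum response factor (SRF) with its ETS partners, and the factor CREB, are well known to drive many of them through MAP kinases. EGR1, EGR2 and EGR3 are zinc finger activators of this kind, and the KLF genes encode zinc finger factors that bind GC-rich and CACCC elements. IER2, IER3 and IER5 encode small proteins induced together with them, of which IER3 acts on survival and ERK signaling and IER5 on heat shock factor HSF1.

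The stretches before the start sites of EGR1, EGR2 and IER2 are shown because they differ in the elements just named. RefSeq's table (GRCh38.p14) had 9 windows for 7 of the 10 genes, and EGR3, KLF10 and IER3 had no entry. Each sequence gives the 250 bases before the start on the gene's strand, with CArG boxes (the site of SRF), CCGGAA (the ETS core) and TGACGT (a part of the CRE) in capitals, on either strand. The EGR1 window lies at chr5:138465229-138465478 (plus strand), the EGR2 window at chr10:62816367-62816616 (minus strand) and the IER2 window at chr19:13150161-13150410 (plus strand).
EGR1: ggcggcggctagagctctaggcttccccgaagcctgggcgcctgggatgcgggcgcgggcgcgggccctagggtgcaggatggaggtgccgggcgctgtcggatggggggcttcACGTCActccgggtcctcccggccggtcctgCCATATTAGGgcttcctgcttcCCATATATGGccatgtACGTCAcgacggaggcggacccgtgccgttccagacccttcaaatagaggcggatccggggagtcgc
EGR2: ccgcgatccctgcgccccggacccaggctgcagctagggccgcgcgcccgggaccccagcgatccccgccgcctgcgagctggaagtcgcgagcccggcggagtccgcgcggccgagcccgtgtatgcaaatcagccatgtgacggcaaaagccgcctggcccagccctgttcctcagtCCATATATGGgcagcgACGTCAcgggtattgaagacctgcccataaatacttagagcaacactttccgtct
IER2: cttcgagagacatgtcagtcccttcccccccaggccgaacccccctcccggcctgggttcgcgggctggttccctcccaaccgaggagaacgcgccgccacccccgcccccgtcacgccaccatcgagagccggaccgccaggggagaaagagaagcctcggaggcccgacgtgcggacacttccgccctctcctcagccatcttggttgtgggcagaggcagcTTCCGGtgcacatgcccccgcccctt

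EGR1 had 2 CArG boxes, CCATATTAGG starting at position -105 and CCATATATGG at -83, where -1 is the last base before the start. It also had 2 matches of TGACGT, at -136 and -67. EGR2 had 1 CArG box, at -71, with the same letters as the second of EGR1, and 1 TGACGT at -55, in 1 of its 3 windows. A CArG box was present in 2 of the 7 genes and in 1.16% of all 35116 RefSeq windows of this length, and TGACGT in 2 of 7 and in 7.10% of all windows. IER2 and IER5 each held 1 CCGGAA, at -26 and -74, a motif found in 14.5% of all windows. The KLF windows held none of these 3 motifs. They held the GC box GGGCGG, with 4 matches in KLF2, 4 in KLF4 and 2 in KLF6. GGGCGG was present in 5 of the 7 genes and in 42.6% of all windows. The EGR site GCGGGGGCG was present in KLF2, at -248, and in KLF6, at -65, overlapping a GC box in both, and in 4.72% of all windows. An NF-kB site was present in 1 of 7 genes, EGR2, in another of its windows, and in 9.96% of all windows. The full CRE TGACGTCA, the AP-1 site TGACTCA, the EGR site GCGTGGGCG and TATAAA were in 0 of the 7 genes and in 1.65%, 4.20%, 0.720% and 10.7% of all windows. A gene counted if any of its windows held the motif, so EGR2 had 3 chances, while the share over all is per window. The GC content was 54.8% in 1 window of EGR2 and 66% to 80% in the other windows of these genes. Over all windows its median was 58%, and the part of this in the counts was not tested. A match says only that these letters are present in this window.

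Measured on 1 transcript each, the 10 genes were short. In GENCODE 29, the transcript with the longest coding sequence had 1 to 5 exons, and 9 of the 10 genes had 4 or fewer, which was the case for 19.9% of the 12772 protein-coding genes tested. This transcript spanned 1356 to 9280 bases, against a median of 28183 bases over those genes. For EGR2 it spanned 4360 bases, although the annotated gene runs much further, from 62811996 to 62919900. The pentamer ATTTA, the core of AU-rich elements that shorten the life of early mRNAs, occurred 0 to 10 times in the 3' UTR. Counts of 3 or more were found for 6 of the 10 genes and for 39.5% of the tested protein-coding genes. IER5 had 10 and IER3 had 6 in a 3' UTR of 737 bases, the densest of the group at 8.14 per kilobase, and IER2 had 0. The median density of the 10 genes was 1.96 per kilobase, against 1.51 per kilobase over all.

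Counts on genes totalled 14319398 to 16521021 per library, and 0 counts in a library allow up to 0.182 to 0.210 CPM (the unit of edgeR's cpm function, a gene's reads as a share of the library after TMM scaling), counting error only. IL17D had 18 to 34 counts in control libraries and 26772 to 32155 in IL17D-overexpressing libraries, as labelled. Epithelial keratins KRT8, KRT18 and KRT7 were abundant, at 1570 CPM or more in every library, while EPCAM had 0.622 to 1.31 CPM and KRT19 0.185 to 0.669 CPM. Alveolar type 2 markers were low, from SFTPC, at 0 counts in 4 of 6 libraries, to NAPSA, at 0.669 to 2.28 CPM. The summed level of the 6 epithelial markers was 12737 to 13243 CPM in control and 12372 to 12619 CPM in IL17D-overexpressing cells. CDH1 (E-cadherin) fell by 0.28 in log2 (Benjamini-Hochberg adjusted p = 0.031 over 15754 tested genes, edgeR). DESeq2 called 0 of these markers and limma voom 2. All 5 tested markers had a negative log2 fold change, as did 7896 of the 15754 tested genes. For 3 of them all IL17D-overexpressing libraries lay below all control libraries, as for 1309 of all tested genes. The part of this in the values below was not tested. PTPRC, CD3E and HBB, markers of blood cells, had 0 counts in all 6 libraries, while CD14, another blood marker, had 0.497 to 1.22 CPM. The 9 blood, endothelial and fibroblast markers summed to 20.2 to 25.9 CPM, nearly all of it COL1A1.

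In control cells the levels per length of the 10 genes spanned from IER3 to EGR3, in CPM per kilobase of the gene length in the authors' table. IER3 led with 153 ± 3.14 CPM per kilobase (SD, n = 3), 6.15 times the next gene, IER5, at 24.9 ± 1.44. KLF10 followed at 20.3 ± 0.652, IER2 at 17.9 ± 0.784, KLF6 at 14.0 ± 1.15, KLF2 at 11.2 ± 0.853, KLF4 at 5.45 ± 0.219 and EGR1 at 2.08 ± 0.169 CPM per kilobase. Among these 8 genes, no neighbours in the order overlapped in their 3 control values. This covers the spread between libraries only, because the order also depends on the gene length used. The transcript with the longest coding sequence was shorter for some genes, such as KLF10 (3097 against 4003 bases) and KLF6 (4656 against 6139 bases). An order by those lengths was not computed. EGR2 (0.0899 ± 0.0742) and EGR3 (0.0237 ± 0.0411) came last and overlapped each other. EGR1 was thus the one EGR gene of the 3 with a level above the counting limit in each library, and its mean CPM exceeded that of 35.5% of tested genes, against 95.2% for IER3.

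**Figure D1:**
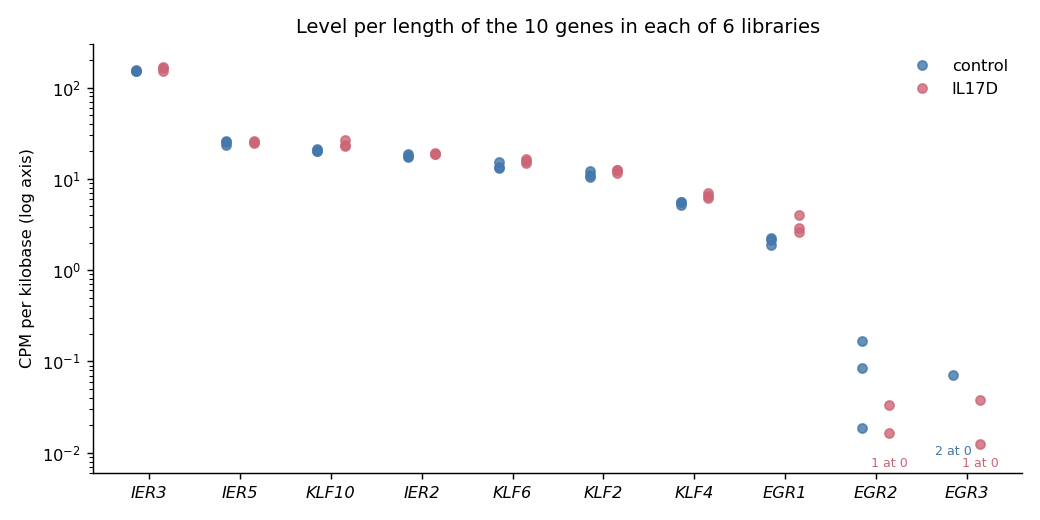
Level per length of the 10 genes, in CPM per kilobase on a log axis, with 1 point per library in control (blue) and IL17D-overexpressing (red) cells; libraries at 0 are counted at the bottom. IER3 stands at 153 CPM per kilobase in control cells, EGR1 at 2.08, and EGR2 and EGR3 are at or near 0.

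EGR1 (ENSG00000120738, chromosome 5 of GRCh38, 138465490 to 138469315) is the best known member of the EGR family. It had 7.02, 6.64 and 5.97 CPM in control replicates 1, 2 and 3 and 9.06, 12.5 and 8.13 CPM in IL17D-overexpressing replicates 1, 2 and 3. The groups did not overlap, and IL17D replicate 2 stood well above the other two libraries of its group. The mean was 6.54 ± 0.530 CPM (SD, n = 3) in control and 9.88 ± 2.28 CPM (SD, n = 3) with IL17D overexpression, 51.1% higher. The log2 fold change from edgeR, IL17D-overexpressing over control, was 0.60 with a standard error (SE) of 0.15. This was the largest difference among the 8 genes with enough counts to be compared. Without IL17D replicate 2 the log2 fold change was 0.40, and over all libraries left out in turn it was 0.40 to 0.72. FOS and FOSB, named here after their values were seen, were also highest in IL17D replicate 2, at 10.4 CPM for FOS against 6.44 and 7.29 in replicates 1 and 3, and 3.59 CPM for FOSB against 2.13 and 3.36. Over the 20 other immediate early genes listed, replicate 2 was the highest of its group in 7, replicate 1 in 8 and replicate 3 in 5.

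EGR2 (ENSG00000122877, chromosome 10, 62811996 to 62919900) and EGR3 (ENSG00000179388, chromosome 8, 22687659 to 22693302) were barely detected. EGR2 had 10, 1 and 5 counts in control and 2, 1 and 0 counts in IL17D-overexpressing replicates, and EGR3 had 0, 5 and 0 counts against 1, 3 and 0. Both groups overlapped for both genes. Neither passed filterByExpr, edgeR's filter on low counts, so neither was compared. The counts of EGR2 summed to 16 in control and 3 in IL17D-overexpressing libraries, and those of EGR3 to 5 and 4. EGR2, whose upstream window holds the CArG box shown above, thus had almost no reads.

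The KLF genes all had higher means in IL17D-overexpressing cells, by 9.17% to 19.2%. KLF10 (ENSG00000155090, chromosome 8, 102648779 to 102655902), also known as TIEG1, is an early response gene of TGF-beta. It had 84.4, 80.1 and 79.8 CPM in control replicates 1, 2 and 3 and 92.4, 93.4 and 105.4 CPM in IL17D-overexpressing replicates. The groups did not overlap, and IL17D replicate 3 was the highest library. The mean was 81.4 ± 2.61 CPM in control and 97.1 ± 7.24 CPM in IL17D-overexpressing cells (SD, n = 3 each), with a log2 fold change of 0.25 (SE 0.052) that was 0.19 without IL17D replicate 3. KLF4 (ENSG00000136826, chromosome 9, 107484852 to 107490482), a factor of epithelial differentiation and pluripotency, had a difference of the same size from fewer reads.

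For KLF4, control replicates had 20.2, 20.5 and 19.0 CPM and IL17D-overexpressing replicates 22.4, 23.5 and 25.4 CPM. These groups did not overlap either, and the log2 fold change was 0.25 (SE 0.088). KLF6 (ENSG00000067082, chromosome 10, 3775996 to 3785281), a ubiquitous GC-box factor known as a tumor suppressor, had 82.2, 81.3 and 93.9 CPM in control and 90.5, 96.2 and 100.6 CPM in IL17D-overexpressing replicates. Control replicate 3 lay above IL17D replicate 1, so the groups overlapped, with a log2 fold change of 0.16 (SE 0.054) that was 0.23 without that control library. KLF2 (ENSG00000127528, chromosome 19, 16324817 to 16327874), a regulator of endothelial and T cell quiescence, had 24.3, 20.9 and 22.3 CPM in control and 25.0, 25.2 and 23.5 CPM in IL17D-overexpressing replicates. Here control replicate 1 lay inside the range of the other group, and the log2 fold change was 0.13 (SE 0.086).

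The IER genes differed least. IER3 (ENSG00000137331, chromosome 6, 30743199 to 30744554) had 211.9, 208.2 and 203.4 CPM in control and 224.4, 225.0 and 205.7 CPM in IL17D-overexpressing replicates. IL17D replicate 3 fell inside the control range, and the log2 fold change was 0.07 (SE 0.039). IER2 (ENSG00000160888, chromosome 19, 13150415 to 13154908) had 57.5, 55.2 and 52.7 CPM in control and 59.3, 57.1 and 56.9 CPM in IL17D-overexpressing replicates, with overlap and a log2 fold change of 0.07 (SE 0.058). IER5 (ENSG00000162783, chromosome 1, 181088712 to 181092899) had 106.7, 109.0 and 97.6 CPM in control and 106.4, 102.1 and 109.95 CPM in IL17D-overexpressing replicates, with a log2 fold change of 0.02 (SE 0.048), smaller than its error. Its sign was negative without control replicate 3 (-0.02) and without IL17D replicate 3 (-0.00073). Genes on the opposite strand overlap IER3 and IER2, and the strand used in counting is not given in the sources used here. They had at most 5 counts in a library (IER3-AS1) and 0 counts (AC011446.2).

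**Figure D2:**
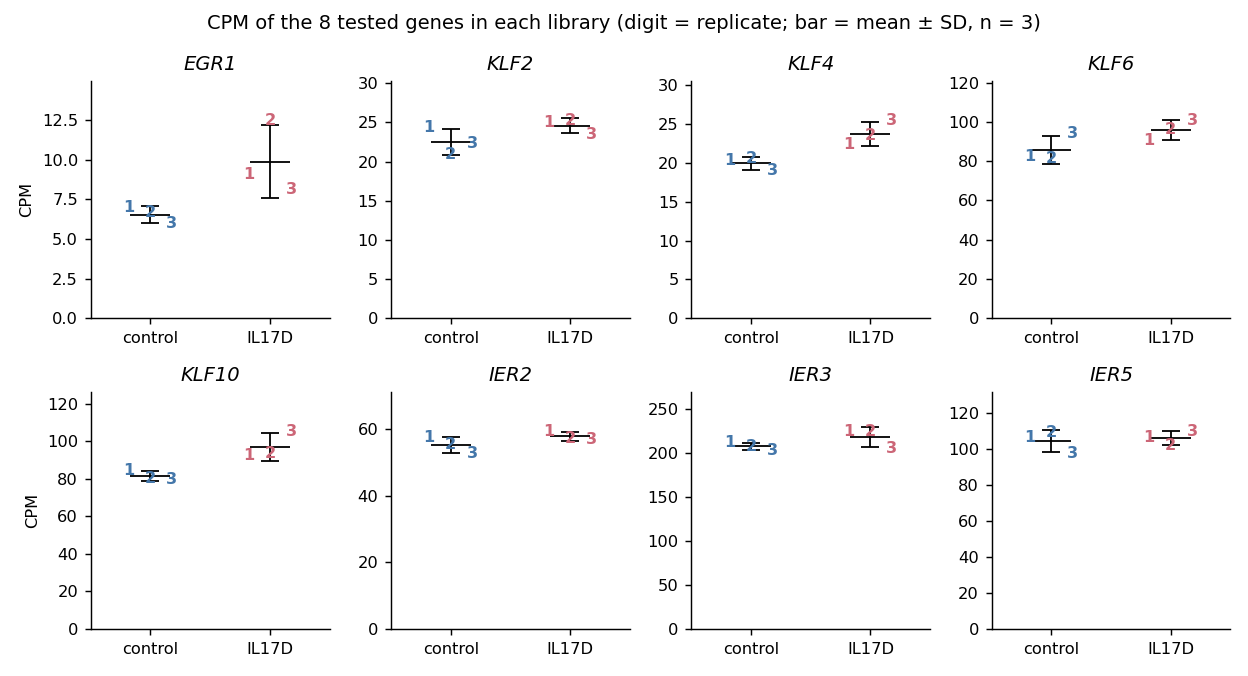
CPM of the 8 genes with enough counts in each of the 6 libraries, on axes that start at 0; digits are replicate numbers, bars the mean ± SD of 3 libraries. EGR1, KLF4 and KLF10 have all 3 IL17D-overexpressing libraries above all 3 control libraries, and the IER genes lie close together.

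Of the 10 genes, 8 passed the filter and all 8 had a positive log2 fold change, from 0.02 for IER5 to 0.60 for EGR1. The median was 0.14, against -0.00044 over the 15754 genes tested. All IL17D-overexpressing libraries lay above all control libraries for 3 of the 8 (EGR1, KLF4 and KLF10), and for 7.48% of all tested genes. In the quasi-likelihood test of edgeR, 2 of the 8, EGR1 and KLF10, were called higher, that is, had a Benjamini-Hochberg adjusted p below 0.05 over all tested genes, as did 0.673% of those genes. Nothing is read from these counts, because this contrast was known when the genes were chosen. With DESeq2's Wald test and with limma voom the count was 1, KLF10. Among control libraries, replicate 1 was highest for 5 of the 8 genes and replicate 3 lowest for 6, and IL17D replicate 3 was highest for 4 and lowest for 4. Averaged over the 8 genes, log2 CPM lay above the control mean by 0.16, 0.22 and 0.18 in IL17D replicates 1, 2 and 3. EGR1 weighed most in these means, at 0.44, 0.88 and 0.30, and the medians over the 8 genes were 0.13, 0.17 and 0.15. EGR1 was not in the count without control replicate 2, control replicate 3 or IL17D replicate 2, and KLF10 was not in it without IL17D replicate 3.

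**Figure D3:**
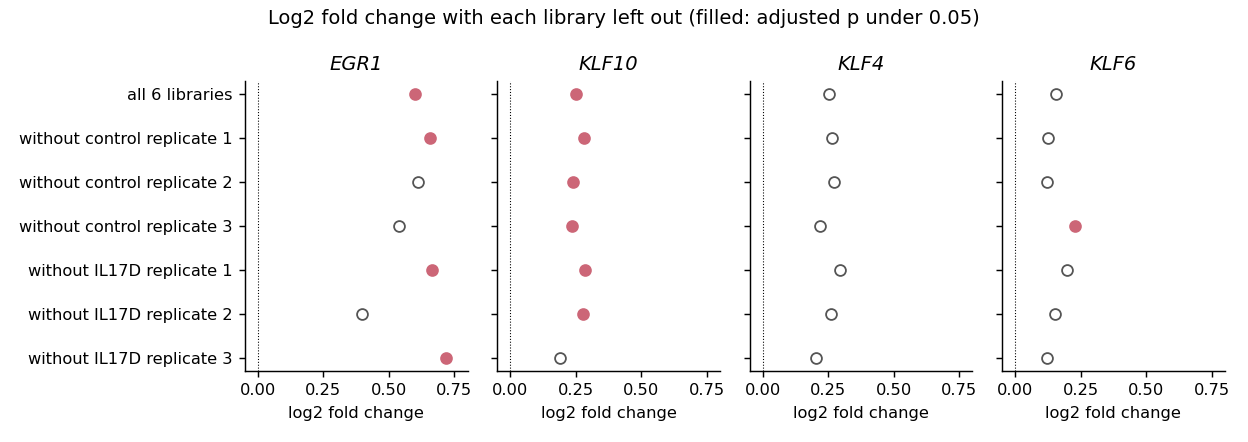
Log2 fold change of EGR1, KLF10, KLF4 and KLF6 with all 6 libraries and with each library left out; filled points have an adjusted p under 0.05 over all tested genes. EGR1 ranges from 0.40 without IL17D replicate 2 to 0.72 without IL17D replicate 3, and KLF10 from 0.19 to 0.29.

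Other genes of the same families were not called, a count from which nothing is read because so few were tested. Of 15 further EGR, KLF and IER family genes, 9 were tested and 0 were called by edgeR, DESeq2 or limma voom, against 1.58% of all tested genes called by edgeR in either direction. Unadjusted edgeR p-values under 0.05 were found for 2 of them, KLF12 and KLF16, both higher. Of all 15754 tested genes, 880 were higher and 943 lower by that measure. Of the 9 tested, 3 were higher and 6 lower, and the median log2 fold change was -0.041. EGR4, KLF1, KLF8, KLF14, KLF15 and KLF17 did not pass the filter. IER5L, a relative of IER5 and the most abundant per length, had 114.9 ± 4.86 CPM in control and 110.5 ± 3.44 CPM in IL17D-overexpressing cells (SD, n = 3 each), a log2 fold change of -0.056 (SE 0.046, edgeR adjusted p = 0.72). KLF5, an epithelial proliferation factor, had 75.3 ± 2.62 and 71.2 ± 2.25 CPM (SD, n = 3 each), a log2 fold change of -0.080 (SE 0.052, edgeR adjusted p = 0.62). KLF16, named after its values were seen, had 39.4, 41.0 and 38.7 CPM in control and 49.5, 43.5 and 45.3 CPM in IL17D-overexpressing replicates, without overlap, and a log2 fold change of 0.22 (SE 0.066, edgeR adjusted p = 0.10). KLF9, also named after its values were seen, went the other way without overlap. It had 6.40, 6.36 and 7.27 CPM in control and 5.17, 5.90 and 5.33 CPM in IL17D-overexpressing replicates. Its log2 fold change was -0.29 (SE 0.16, edgeR adjusted p = 0.50). Over the 435 other tested genes that the authors' table places among C2H2 zinc finger factors, 1 was called higher and 1 lower, and the median log2 fold change was 0.023.

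The genes that act on the early genes were listed as SRF, its ETS and MRTF partners, CREB1, the MAP kinases and their downstream kinases, SP1, SP3, HSF1, and the corepressors NAB1, NAB2 and SIN3A. All 20 were tested, and edgeR, DESeq2 and limma voom each called 0, beside 1.58% of all tested genes called by edgeR in either direction. By unadjusted edgeR p under 0.05, 2 were higher and 3 lower, beside 880 higher and 943 lower of the 15754 tested genes. The median log2 fold change of the 20 was 0.031, in a range of -0.13 to 0.14. Without control replicate 3, 1 gene (MRTFA) was called lower. HSF1, the heat shock factor, had 109.5 ± 5.89 and 115.3 ± 4.43 CPM (SD, n = 3 each), a log2 fold change of 0.08 (SE 0.047, edgeR adjusted p = 0.59). These values are mRNA levels, and activity of the proteins was not measured in these libraries.

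Among 20 genes commonly given as targets of EGR1, KLF2, KLF4, KLF10 or IER5, 19 were tested. Beside 0.673% of all tested genes called higher by edgeR, 1 of these was called higher and 0 lower. The count was 2 with DESeq2 and with limma voom, and 0 without control replicate 1, control replicate 2, IL17D replicate 1 or IL17D replicate 3. HSPB1, a small heat shock protein, had 380.3 ± 11.7 and 369.8 ± 8.97 CPM (SD, n = 3 each), a log2 fold change of -0.040 (SE 0.034, edgeR adjusted p = 0.72). Of the 19 tested targets 10 were higher and 9 lower, and the median log2 fold change was 0.0028. NAB2, a target of EGR1 that in turn represses it, had a log2 fold change of 0.12 (SE 0.096, edgeR adjusted p = 0.69).

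**Figure D4:**
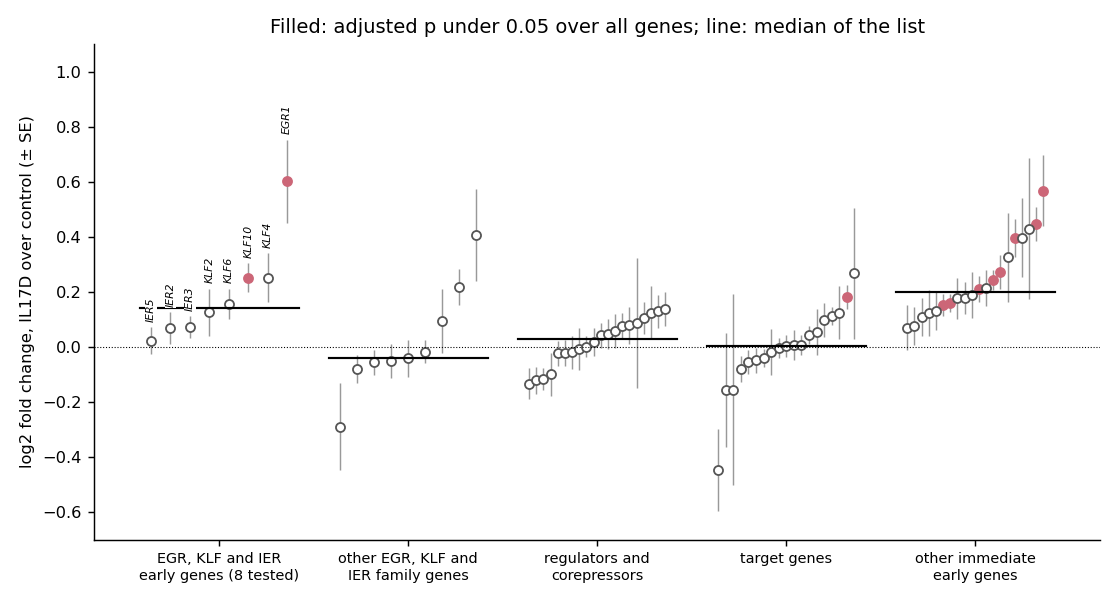
Log2 fold change (IL17D-overexpressing over control, ± standard error) of each tested gene in 5 lists; filled points have an adjusted p under 0.05 over all tested genes and lines mark medians. The 8 tested early genes lie above 0 with a median of 0.14, the other family genes have a median of -0.041, and regulators and targets lie around 0.

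Of 20 other immediate early genes, such as those of the FOS, JUN and NR4A families, all were tested. At an adjusted p under 0.05 in edgeR, 8 rose and 0 fell, beside 0.673% of all tested genes called higher. The median log2 fold change of the 20 genes was 0.20. This list holds genes already known to be higher in these libraries and is not independent evidence of a direction. KLF2, KLF6 and the 3 IER genes lay below that median and EGR1, KLF4 and KLF10 above it. The difference between the lists was not tested.

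The genes whose pattern lay nearest to EGR1 were found by the root mean square difference, over the 6 libraries, of log2 CPM centred on the control mean. The 10 genes were left out, and a mean of at least 10 CPM over the 6 libraries was required. EGR1 itself lay below this floor, with means of 6.54 and 9.88 CPM, so genes at its level were not searched. DCLK1 and SLC16A6 came first (0.132 each), followed by MAPK4 (0.175), SLC2A3 (0.178) and SUSD2 (0.189). DCLK1 passed the floor only through its IL17D-overexpressing libraries, with a mean of 8.41 CPM in control and 13.1 CPM in IL17D-overexpressing cells. DCLK1, which encodes a microtubule-associated kinase, had 8.18, 8.85 and 8.21 CPM in control and 11.2, 15.4 and 12.7 CPM in IL17D-overexpressing replicates, with replicate 2 highest as for EGR1. SLC16A6, a transporter of the monocarboxylate family, had 12.6 ± 0.490 and 18.3 ± 1.53 CPM (SD, n = 3 each). These genes were picked for their likeness to EGR1, so their own differences are descriptions.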

How the data were processed

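RNA from 3 libraries of A549 cells overexpressing IL17D and 3 with empty vector was compared. The authors deposited raw counts of reads per gene, without normalization. The submitters' processing notes name Bowtie2 and hg38 without a role, and the counting tool is not given in the sources used here. Gene coordinates of the 10 genes in the table are those of GENCODE 29 on GRCh38. No per-sample column was left out.

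Counts were analysed in R 4.3.3 with edgeR 4.0.16 (filterByExpr, TMM, glmQLFit and glmQLFTest, no covariates, Benjamini-Hochberg adjustment over 15754 genes), limma 3.58.1 and DESeq2 1.42.0. Summaries used Python 3.11.15. CPM used TMM-scaled totals, and errors are SD of 3 libraries. The steps were tested on simulated data that gave every gene the same variation between libraries beyond counting error. That variation was smaller than the one estimated for EGR1. Libraries of a group differed by more than counting error (chi-square per degree of freedom 2.16 to 3.18). A pattern nearest to EGR1 was sought with 0.5 added to CPM. Named genes were the 10 genes, IL17D, in each list the genes at an adjusted p under 0.05 and the 2 others with the highest CPM per kilobase in control cells, and the 5 genes nearest to EGR1. The members and lists were chosen with earlier results of these data known. Alternatives were other scaling, filters and tools, a replicate block, and each library left out in turn. Protein sequences were not used here, and some genes that the rule names are not reported here.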

Additional observations from a re-analysis of the deposited data

How the results depend on the processing

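Of the counts and the median, the value of 2 early genes called higher became 1 with DESeq2 (same genes tested), 1 with DESeq2 without the filter on low counts (where EGR1 received no adjusted p) and 1 with limma voom, and was 1 to 2 with a library left out. Targets called (1) became 2, 2 and 2 under the same 3 alternatives and 0 to 1 with a library left out. With a library left out, all genes called (249) ranged from 145 to 267, lowest without IL17D replicate 3 and 155 without IL17D replicate 1. The other immediate early genes called (8) ranged from 5 to 8, with 5 without control replicate 2 and without IL17D replicate 1. Regulators called (0) ranged from 0 to 1, other family genes called from 0 to 0, and the median log2 fold change of the early genes (0.14) from 0.099 to 0.17, lowest without control replicate 2. The causes were not tested. Signs changed for IER5 (-0.023 without control replicate 3, -0.00073 without IL17D replicate 3, at most 0.054, without control replicate 2). KLF6 was called only without control replicate 3 (log2 fold change 0.23). Deviations from group means had r of -0.11 to 0.071 between libraries of the same replicate number. Between libraries of unlike numbers r was -0.15 to 0.20. With 3 libraries in each group these values cannot show whether the numbers pair the libraries. The fit with the replicate number as a block called 272 genes, 2 of the early genes among them. EGR2 and EGR3 had at most 10 counts in a library and were left out by the filter.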
